A study of Mus musculus with 8 samples.

Results

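Type I interferon-stimulated genes were examined in lung mesenchyme of mice lacking Hhip, the hedgehog-interacting protein that holds hedgehog ligands at the cell surface. The 38 genes were taken by name from a list of type I interferon responders, and all 38 were found among the 31607 genes of the authors' deposited table, each under 1 entry. HhipCKO mice carried UBCcreER, Myh11creER and homozygous floxed Hhip alleles, and Control mice carried the floxed alleles alone. All were adult and received tamoxifen, so the floxed alleles and the drug were shared and the recombinases were not. Effects of the recombinases and of the deletion cannot be told apart. Live cells negative for CD45, CD31 and Epcam were sorted, although the extraction protocol speaks of cultured cells. Bulk RNA sequencing gave 4 HhipCKO and 4 Control libraries. The labels do not say whether libraries came from separate animals, so p-values measure the spread between these libraries only, which may be technical.

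Type I interferons signal through a receptor made of Ifnar1 and Ifnar2, and the kinases Jak1 and Tyk2 then activate a complex that holds Stat2 and Irf9. That complex binds the interferon-stimulated response element in the promoters of antiviral genes. Some of these genes, such as Ifitm3 and Stat2, are made in resting stroma, whereas others, such as Ifi44, Mx1 and Oas1a, are low until interferon arrives. Ifi44, Mx1 and Oas1a were nevertheless detected in Control here, at the levels given below. Fibroblasts carry the receptor and respond to interferon released by neighbouring cells.

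The response element core is a pair of GAAA blocks separated by any 2 bases, read on either strand. RefSeq promoter windows on GRCm38.p6, running from 250 bases before to 50 after an annotated start, were found for 28 of the 38 genes. The core was present in 13 of these 28 genes (46.4%, 95% Wilson interval from 29.5 to 64.2%) and in 3.99% of all 27025 genes with a window. The 5 stretches shown here are those of Ifit1, Ifit3 and Isg15, classical responders, and of Oas1a and Stat2, which had the largest and the smallest log2 fold change among the 13. They read 5′ to 3′ on the strand of the gene, with each core in capitals (TTTC blocks mark a core on the opposite strand).
Ifit1, chr19:34640745-34640853, plus strand: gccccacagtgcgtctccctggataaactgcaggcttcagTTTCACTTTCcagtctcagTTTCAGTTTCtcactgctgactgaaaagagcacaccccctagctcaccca
Ifit3, chr19:34583333-34583456, plus strand: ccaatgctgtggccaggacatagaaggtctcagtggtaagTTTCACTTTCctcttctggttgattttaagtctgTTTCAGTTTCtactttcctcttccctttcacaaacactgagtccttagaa
Isg15, chr4:156200835-156200936, minus strand: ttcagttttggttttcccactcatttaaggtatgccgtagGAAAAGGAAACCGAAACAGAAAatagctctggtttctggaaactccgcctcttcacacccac
Oas1a, chr5:120907526-120907585, minus strand: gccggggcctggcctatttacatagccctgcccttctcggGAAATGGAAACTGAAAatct
Stat2, chr10:128270248-128270325, plus strand: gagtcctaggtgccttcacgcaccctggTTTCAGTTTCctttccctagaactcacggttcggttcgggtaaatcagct

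Isg15 carried 3 overlapping cores and Oas1a 2 overlapping ones, whereas Ifit1 and Ifit3 each carried 2 separate cores on the opposite strand and Stat2 a single core far from its start. A second motif, the gamma-activated sequence TTCNNNGAA, which reads the same on both strands, was present in 7 of the 28 genes (25%) and in 9.55% of all genes. It overlapped the response element core in Bst2 and Ifitm3. A match describes the letters of the window and does not show binding.

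The deletion itself was checked first. Hhip (ENSMUSG00000064325) was 6.15-fold lower in HhipCKO, at a log2 fold change of -2.62 ± 0.32 (SE) and a BH-adjusted p of 9.55e-13 by the authors' deposited table. Values per library were not analysed here. The mean level of each group was therefore computed from the mean normalised count over the 8 libraries and the fold change, and depth per library is not given. The mean normalised counts of all genes in the authors' deposited table sum to 128669692, of which the 38 genes hold 0.159%. The sort label was checked against markers per kilobase of transcript. Col3a1, the fibrillar collagen of fibroblasts, stood at 175390 normalised counts per kilobase and Ptprc, which encodes CD45, at 131. Transcripts of non-mesenchymal cells were nevertheless present, with Sftpc of alveolar epithelium at 131088 and Igkc of plasma cells at 121554 normalised counts per kilobase. Lyz2, a lysozyme gene listed below with the macrophage markers, stood at 28805 normalised counts per kilobase, and which cells made it was not tested.

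All 38 genes had a positive log2 fold change in the authors' deposited table, and 3 of them rose past an adjusted p (Benjamini-Hochberg, BH) of 0.05. These were Ifi44l, Serpina3g and Ifi27l2a. The other 33 genes with an adjusted p did not pass, and Ifi44 and Irf7 have no p-value there. The 3 calls make up 8.33% of the 36 tested genes, beside 3.06% of all 17469 tested genes called upwards, 3.92% called downwards and 6.98% called in all. None of the 36 was called downwards by the authors' Wald test. At an unadjusted p under 0.05 the share was 9 of 36 (25%), beside 21.8% of all tested genes. The median log2 fold change of the 36 was 0.63 (lowest 0.01, highest 3.22 among tested genes), beside 0.02 over all tested genes, of which 52.7% were positive. The 38 genes were chosen with earlier results of these data known and share the same libraries. Their common sign is therefore a description and not independent support. In bulk RNA, fewer or more cells making a transcript and less or more of it per cell cannot be told apart.

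**Figure D1:**
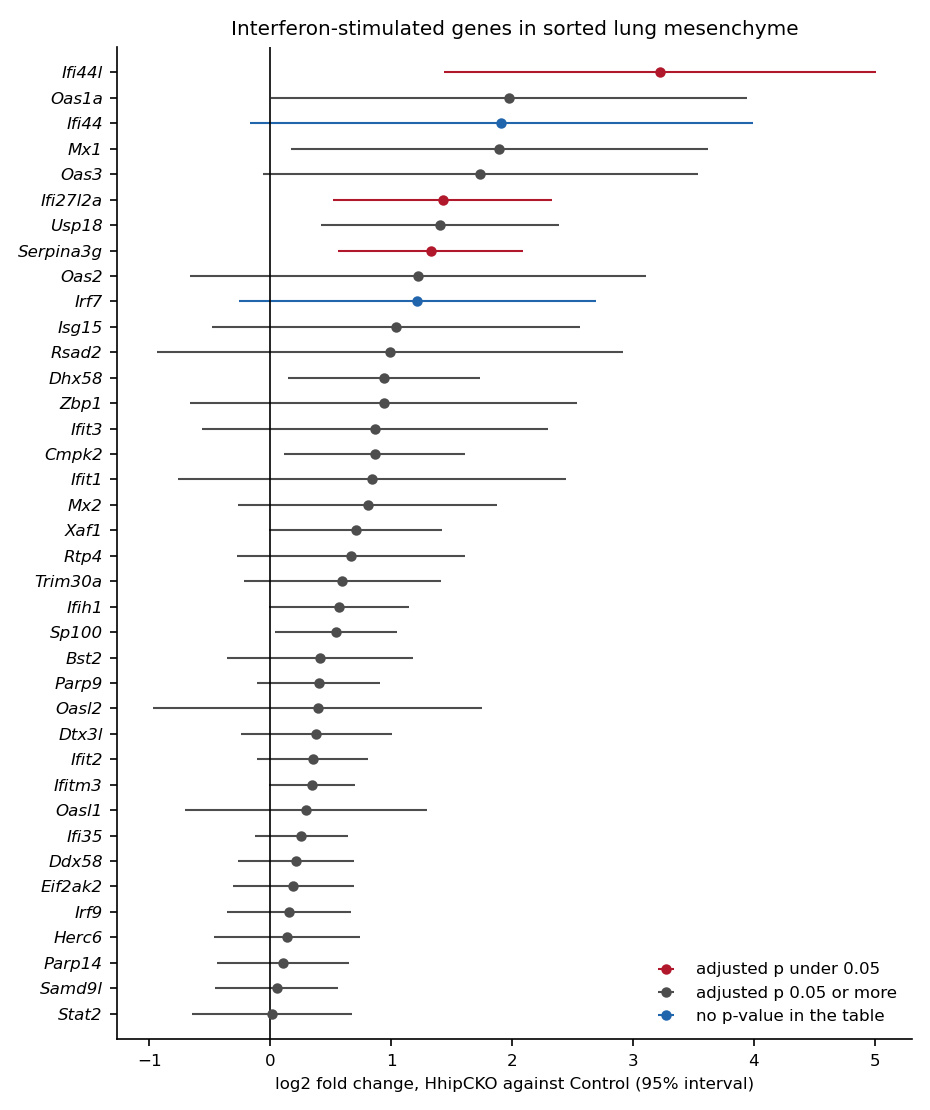
Log2 fold change of HhipCKO against Control for each of the 38 interferon-stimulated genes, with 95% intervals from the authors' standard errors (x axis, log2 units). Every point lies above 0, from 0.01 for Stat2 to 3.22 for Ifi44l; red marks the 3 genes past the threshold and blue the 2 without a p-value.

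Ifi44l, an interferon-induced gene with no settled biochemical activity, showed the largest difference. Its computed mean was 19.5 normalised counts in Control and 182 in HhipCKO, a 9.35-fold rise with a 95% interval from 2.71 to 32.2. This was, by the authors' deposited table, a log2 fold change of 3.22 ± 0.91 (SE) at a BH-adjusted p of 0.0118. The gene was among the least abundant of the 38, with a mean normalised count of 101 by the authors' deposited table, so few molecules underlie the ratio. Its neighbour Ifi44 on chromosome 3, whose gene body ends 8776 bases away, had computed means of 544 in Control and 2045 in HhipCKO. Ifi44 stood at a log2 fold change of 1.91 ± 1.06 (SE) by the authors' deposited table, with no p-value.

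Serpina3g, a protease inhibitor of the serpin family, rose 2.51-fold with a 95% interval from 1.48 to 4.25. Its computed means were 1005 in Control and 2523 in HhipCKO, and the authors' deposited table gives a log2 fold change of 1.33 ± 0.39 (SE) and a BH-adjusted p of 0.0168. The neighbouring copies Serpina3f and Serpina3h, which resemble it in sequence, stood at 0.08 ± 1.15 and -0.35 ± 0.32 (log2 fold change, SE) by the authors' deposited table. How reads shared between such copies were assigned is not given in the sources used here. Ifi27l2a, a small hydrophobic protein strongly induced by interferon, rose 2.69-fold with a 95% interval from 1.44 to 5.03. It was abundant, with computed means of 6421 in Control and 17249 in HhipCKO, and had a BH-adjusted p of 0.0348 by the authors' deposited table. Its copy Ifi27l2b was at 0.07 ± 0.40 (log2 fold change, SE) by the authors' deposited table, at a mean normalised count of 55.

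The 3 calls did not hold equally under other treatments of the same table. Over 17451 tested genes, log2 fold change and log10 longest transcript had a Pearson r of -0.23 and a Spearman rho of -0.33. Ifi27l2a has the shortest longest transcript of the 38, at 463 bases. With a trend of fold change on transcript length removed, Ifi44l alone passed, and Serpina3g and Ifi27l2a had adjusted p of 0.0561 and 0.120 (normal test with the authors' standard errors, Benjamini-Hochberg). Ifi27l2a also missed the threshold when p-values were adjusted over every gene that has one, at 0.0592, and none of the 3 passed with Wald scores divided by their robust SD of 1.53 or against a minimum 1.5-fold change. Those last treatments also moved the adjusted p of Hhip, from 9.55e-13 to 0.000375 and 1.56e-06 (normal test, Benjamini-Hochberg). The share of all tested genes called under each treatment is not given here, so the lost calls cannot be set against it.

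Genes of the ISG15 system had positive values without a call. Usp18, the protease that strips ISG15 from proteins and also damps the interferon receptor, came nearest. Its computed means were 884 in Control and 2344 in HhipCKO, at a log2 fold change of 1.41 ± 0.50 (SE) and a BH-adjusted p of 0.0627 by the authors' deposited table. Isg15, the ubiquitin-like modifier, had computed means of 1050 and 2164, and its fold of 2.06 had a 95% interval from 0.718 to 5.91. Herc6, the ligase that attaches ISG15 in mice, had computed means of 3601 and 3966, a fold of 1.10 with an interval from 0.726 to 1.67. The intervals of Isg15 and Herc6 both include no change.

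Among RNA-binding effectors, none of the 3 Ifit genes passed. Ifit1, which binds viral RNA lacking a mature cap, had computed means of 1526 in Control and 2742 in HhipCKO, with a log2 fold change of 0.84 ± 0.82 (SE) by the authors' deposited table. Ifit3 had computed means of 5148 and 9403, at 0.87 ± 0.73 (log2 fold change, SE) by the authors' deposited table. Ifit2 stood lower and was measured more tightly, at 0.35 ± 0.23 (log2 fold change, SE) by the authors' deposited table. The 3 genes lie in 1 cluster on chromosome 19. The copy Ifit3b had 0.94 ± 0.76, close to Ifit3, while Ifit1bl1 and Ifit1bl2 had -0.16 ± 0.31 and -0.42 ± 0.33 (log2 fold change, SE) by the authors' deposited table.

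Oligoadenylate synthetases, which sense double-stranded RNA and switch on RNase L, gave no call among 5 genes. Oas1a, Oas2 and Oas3 had log2 fold changes of 1.97 ± 1.0, 1.22 ± 0.96 and 1.74 ± 0.92 (SE) by the authors' deposited table, and all missed the threshold. The related Oasl1 and Oasl2 had 0.29 ± 0.51 and 0.40 ± 0.69 (SE) by the authors' deposited table. Oas1a had computed means of 261 in Control and 1023 in HhipCKO, and Oasl2 of 6238 and 8202, so the more abundant gene of this pair showed the smaller ratio. Oasl1 went the other way, with the smallest ratio of the 5 at a mean normalised count of 238, below the 642 of Oas1a, by the authors' deposited table. The Oas1 copies Oas1b, Oas1c and Oas1g stood at 0.67 ± 0.37, 0.76 ± 0.32 and 1.93 ± 1.12 (log2 fold change, SE) by the authors' deposited table. Whether the Oas and Oasl groups differ was not tested.

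The Mx GTPases trap viral nucleocapsids. Mx1 had computed means of 540 in Control and 2009 in HhipCKO, a fold of 3.72 with a 95% interval from 1.13 to 12.3 and a BH-adjusted p of 0.176 by the authors' deposited table. Mx2, 72400 bases away on chromosome 16, had computed means of 1295 and 2264, at a fold of 1.75 with an interval from 0.834 to 3.67. Mx2 is annotated as a polymorphic pseudogene. Many inbred laboratory strains carry a defective Mx1 allele, and the strain is not given in the labels.

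The other 11 antiviral effectors ranged from 0.05 for Samd9l to 0.99 for Rsad2 (log2 fold change) by the authors' deposited table, and none passed. Cmpk2, a mitochondrial nucleotide kinase, had computed means of 1662 in Control and 3025 in HhipCKO and a BH-adjusted p of 0.153 by the authors' deposited table. It lies head to head with Rsad2, the radical enzyme viperin, with 12752 bases between their starts on chromosome 12. Rsad2 had computed means of 696 and 1383, at a fold of 1.99 with an interval from 0.523 to 7.56. Sp100, a nuclear body protein, had computed means of 6133 and 8949 and a BH-adjusted p of 0.186 by the authors' deposited table.

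Ifitm3, which blocks viral entry from endosomes, was the most abundant gene of the set per kilobase, at 86613 normalised counts per kilobase of its longest transcript. Its computed means were 51671 in Control and 65776 in HhipCKO, a fold of 1.27 with a 95% interval from 0.995 to 1.63. Bst2, the tether that holds budding virus on the cell, followed Ifi27l2a in level, at 10869 normalised counts per kilobase. The fold of Bst2 was 1.33, with an interval from 0.781 to 2.27. Zbp1, a sensor of Z-form nucleic acid, had a log2 fold change of 0.94 ± 0.82 (SE) by the authors' deposited table. Xaf1, Rtp4, Trim30a and Eif2ak2, the kinase PKR, had values of 0.71 ± 0.36, 0.67 ± 0.48, 0.60 ± 0.42 and 0.19 ± 0.25 (log2 fold change, SE) by the authors' deposited table. The copies Trim30b and Trim30d of Trim30a stood at -0.46 ± 0.85 and -0.20 ± 0.30 by the authors' deposited table. The Ifitm3 neighbours Ifitm1 and Ifitm2 had 0.16 ± 0.16 and 0.01 ± 0.46 (log2 fold change, SE) by the authors' deposited table.

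**Figure D2:**
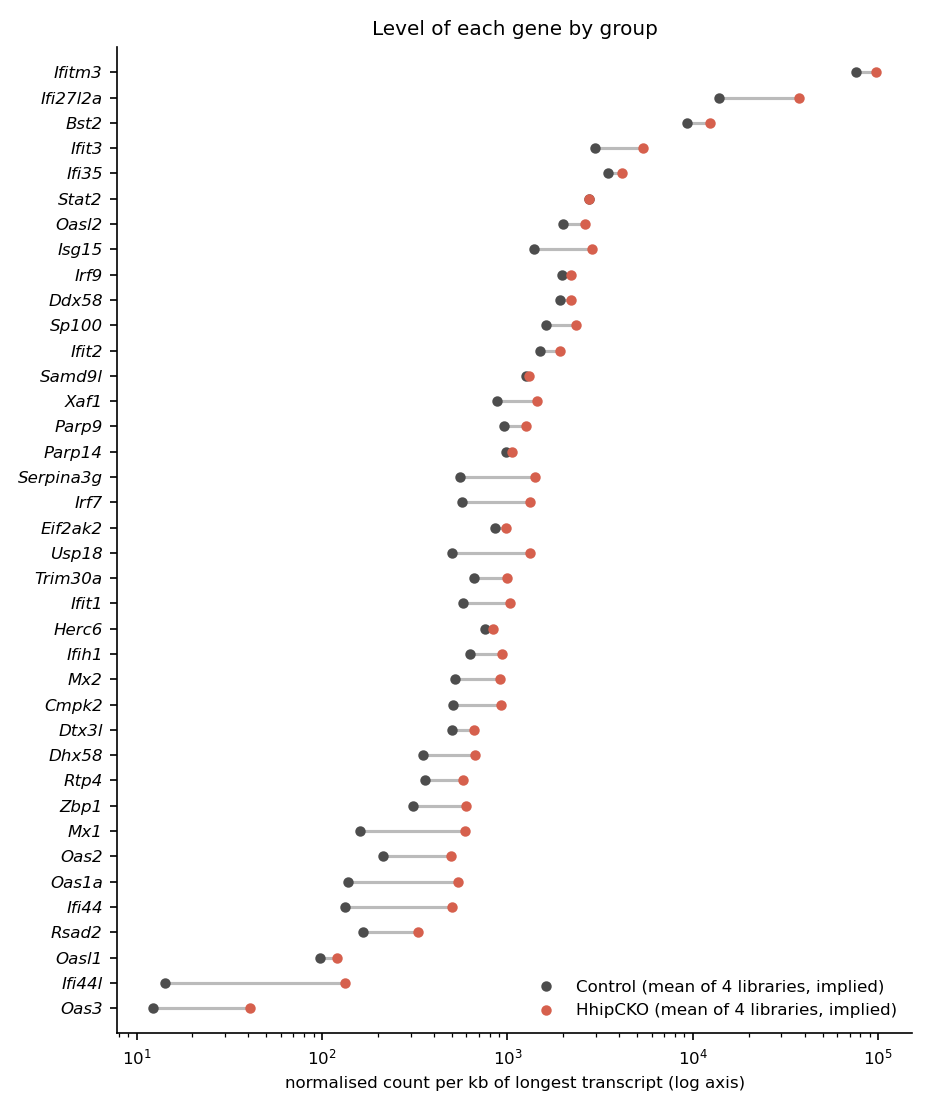
Computed mean normalised count per kilobase of longest transcript in Control (grey) and HhipCKO (red) for each gene, on a log axis and ordered by the mean of both groups; no library values or error bars are shown. Levels run from Ifitm3 at the top to Oas3 at the bottom, and the HhipCKO point lies to the right in all 38 genes, by least in Stat2.

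None of the 3 cytosolic RNA sensors passed. Dhx58, which encodes LGP2, had computed means of 842 in Control and 1617 in HhipCKO, at a log2 fold change of 0.94 ± 0.40 (SE) and a BH-adjusted p of 0.137 by the authors' deposited table. Ifih1, which encodes MDA5, and Ddx58, which encodes RIG-I, had 0.57 ± 0.30 and 0.21 ± 0.25 (log2 fold change, SE) by the authors' deposited table.

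Of the 3 transcription factors, Stat2 and Irf9 did not pass and Irf7 has no p-value. Stat2 had computed means of 12035 in Control and 12160 in HhipCKO, a fold of 1.01 with a 95% interval from 0.639 to 1.60. Irf9, its DNA-binding partner, had 7588 and 8468, a fold of 1.12 with an interval from 0.781 to 1.59. Irf7, the factor that amplifies interferon production, had 1849 and 4296, a fold of 2.32 with an interval from 0.835 to 6.47, and the authors' deposited table leaves its p blank. The intervals of Stat2 and Irf9 therefore leave out a doubling, and that of Irf7 does not. The 3 intervals overlap, and differences between these genes were not tested.

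The ADP-ribosyltransferases Parp9 and Parp14 and the ubiquitin ligase Dtx3l, which acts with Parp9, had log2 fold changes of 0.40 ± 0.26, 0.11 ± 0.28 and 0.38 ± 0.32 (SE) by the authors' deposited table. Parp9 and Dtx3l lie on opposite strands of chromosome 16 and share 458 annotated exon bases, and without a stated strand setting their reads there cannot be told apart. Ifi35, an interferon-induced leucine zipper protein, had 0.26 ± 0.19 (log2 fold change, SE) by the authors' deposited table. Exons of 13 of the 38 genes overlap another annotated gene, by at most 16.8% of the exon bases (Ifi35).

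Genes with larger fold changes also had a larger spread between libraries. A spread for each gene was computed from its standard error, assuming negative binomial counts with 1 dispersion for both groups, and is given as a coefficient of variation between libraries of a group. Its median over the 38 genes was 40.1%, beside 18.6% over all tested genes, and 37 of the 38 lay above that overall median, Ifitm3 being the exception at 17.8%. A spread over 70% was found in 12 of the 38 (31.6%) and in 4.2% of all tested genes. Those 12 were Ifi44, Ifi44l, Ifit1, Ifit3, Irf7, Isg15, Mx1, Oas1a, Oas2, Oas3, Rsad2 and Zbp1. Their log2 fold changes ran from 0.84 to 3.22 with a median of 1.22. In the 14 genes with a spread under 35%, among them Stat2, Irf9, Parp14, Samd9l and Ifitm3, they ran from 0.01 to 0.57 with a median of 0.24. The bounds of 35 and 70% were chosen after the values were seen.

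**Figure D3:**
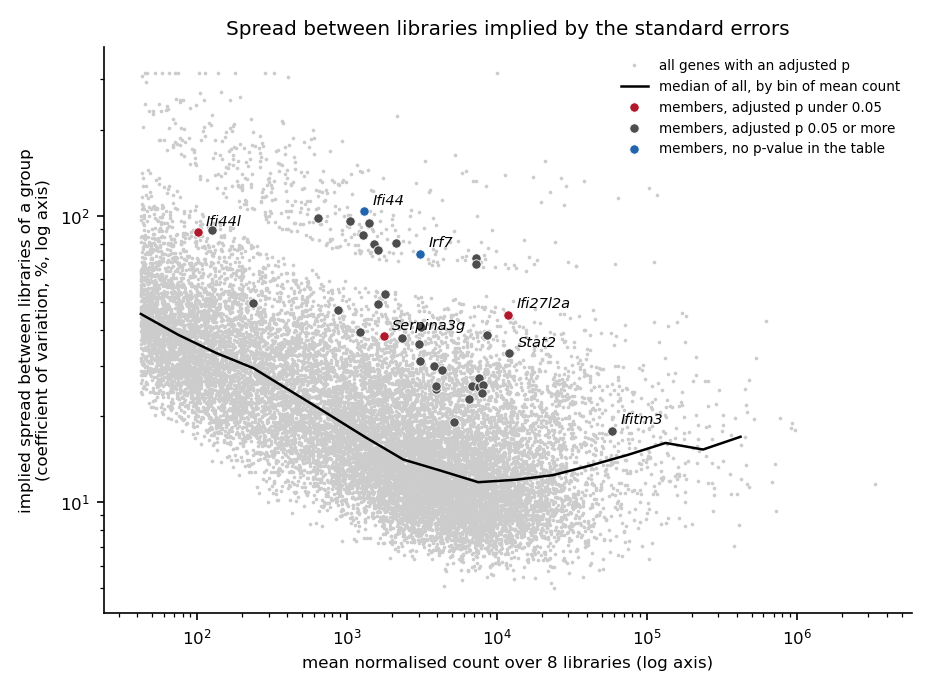
Spread between libraries of a group computed from the standard errors (y axis, coefficient of variation in %, log axis) against mean normalised count (x axis, log axis), with all tested genes in grey and their median by bin as a line. The interferon-stimulated genes (coloured points) lie above the line, from Ifitm3 at 17.8% to Ifi44 at 104%.

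Across the 38 genes, log2 fold change and spread had a Pearson r of 0.74 and a Spearman rho of 0.79, and log2 fold change and log10 mean normalised count an r of -0.67 and a rho of -0.66. These genes share the same 8 libraries and are not independent, and the spread and the fold change come from the same counts. Against log10 level per kilobase, log2 fold change had an r of -0.46 and a rho of -0.48. Over all 17469 tested genes, log2 fold change and log10 mean normalised count had an r of -0.066 and a rho of -0.11. The median level was 366 normalised counts per kilobase in the 12 genes of high spread and 1497 in the 14 of low spread. Ifi27l2a, which rose, was nevertheless the most abundant per kilobase after Ifitm3.

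The fold change that a gene needed to be called depended on its standard error. It restates that error and does not separate a small change from a large spread as the reason for a missed call. The weakest gene called in the authors' deposited table had an absolute Wald score of 2.92, and a gene needs a log2 fold change of that many standard errors to pass. For 22 of the 36 tested genes (61.1%) the fold needed was over 2, beside 22.7% of all tested genes. It was 7.63 for Oas1a, 7.33 for Rsad2, 5.92 for Mx1, 4.81 for Isg15 and 1.44 for Ifitm3. Among the 27 tested genes whose 95% interval holds no change, the interval of 16 also holds a 2-fold rise. The interval lay wholly within a 2-fold difference either way for 11 tested genes, among them Stat2, Irf9, Parp14, Samd9l, Ddx58 and Ifitm3.

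Genes without a p-value were more frequent here than in the table at large, at 2 of 38 (5.26%) beside 150 of 31607 (0.475%). Software of this kind can withhold a p-value where a single library lies far from the fit. Whether that is why Ifi44 and Irf7 have none, and which library would be involved, is not given. How the 4 HhipCKO libraries share the difference cannot be read from these values for any of the 38 genes.

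Upstream of these genes, none of the receptor genes passed and the ligand genes were too scarce to test. The receptor genes Ifnar1 and Ifnar2 had folds of 1.02 (95% interval from 0.902 to 1.16) and 1.09 (0.927 to 1.27). The receptor genes for the other interferon types, Ifngr1, Ifngr2, Ifnlr1 and Il10rb, had log2 fold changes of -0.11 ± 0.23, -0.17 ± 0.13, -0.27 ± 0.36 and 0.25 ± 0.25 (SE) by the authors' deposited table, and none of the 6 receptor genes passed. Of the 10 interferon ligand genes listed, 4 were matched, and all were near silent. Ifnb1, Ifna2, Ifnk and Ifng had mean normalised counts of 0.824, 0.353, 0.974 and 1.0 by the authors' deposited table, too few for an adjusted p.

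Of 10 JAK, STAT and IRF genes, none passed, 3 were positive and 7 negative. Stat3, which serves cytokines of the interleukin-6 family, had -0.42 ± 0.19 (SE) and a BH-adjusted p of 0.179 by the authors' deposited table, and Irf1, an early interferon-gamma target, 0.44 ± 0.26. Of 11 sensor and adaptor genes, Tlr7 rose, 3 were positive in all and 8 negative. Tlr7, an endosomal receptor for single-stranded RNA found mainly in myeloid and B cells, had computed means of 17.5 and 109, and its log2 fold change was 2.64 ± 0.80 (SE, adjusted p = 0.0229) by the authors' deposited table. Tbk1, the kinase below the sensors, had -0.28 ± 0.11 (SE, adjusted p = 0.0814) and the adaptor Ticam1 -0.26 ± 0.19 by the authors' deposited table. Of 8 negative regulators none passed, with Socs3 at -0.45 ± 0.29, Ptpn6 at 0.35 ± 0.28 and Samhd1 at -0.22 ± 0.18 (log2 fold change, SE) by the authors' deposited table.

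A separate list of 56 interferon-stimulated genes outside the 38 gave 53 matches and 49 genes with an adjusted p. Of these 49, 35 had positive and 14 negative values, with a median log2 fold change of 0.25, and 1 rose. This was Ly6a, the surface antigen Sca-1, with computed means of 9083 in Control and 20972 in HhipCKO and a log2 difference of 1.21 ± 0.20 (SE), with a BH-adjusted p of 2.06e-06 by the authors' deposited table. The calls of both Ly6a and Tlr7 were lost with Wald scores divided by their robust SD and against a minimum 1.5-fold change. The nearest to the threshold after Ly6a were Ifi205, Ifi207 and Oas1c, with adjusted p of 0.0522, 0.108 and 0.132 by the authors' deposited table, the first and second of them negative. Epsti1, another strongly inducible gene, had computed means of 27.4 and 152, and the authors' deposited table leaves its p blank.

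**Figure D4:**
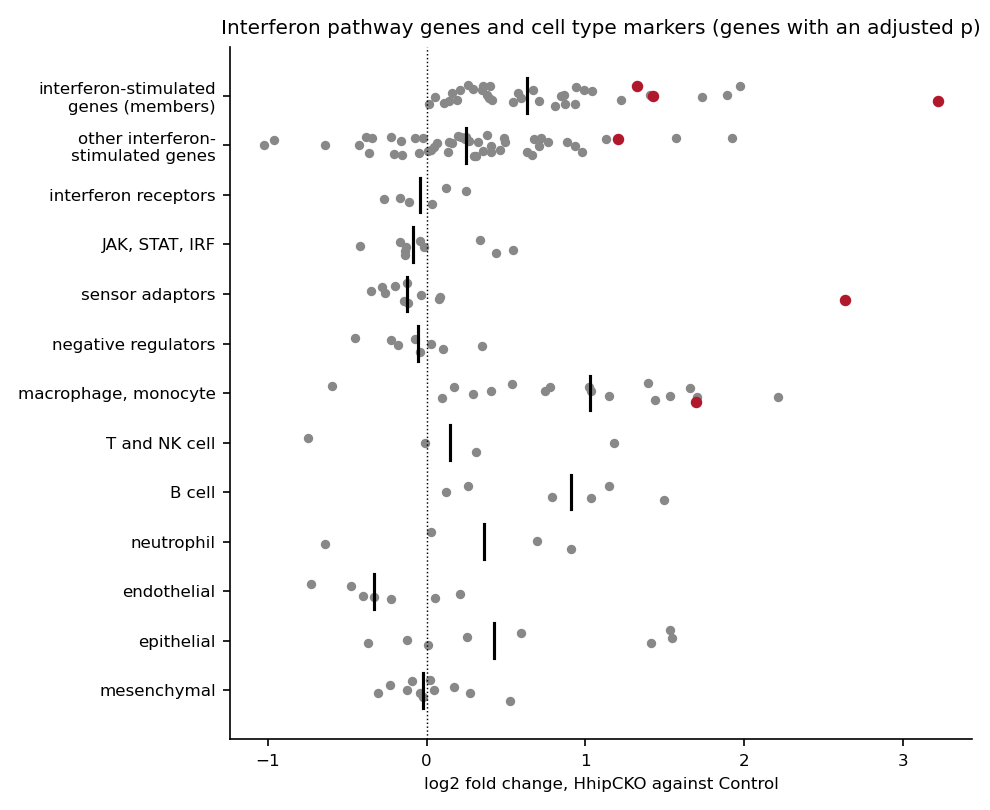
Log2 fold change of HhipCKO against Control (x axis) for genes with an adjusted p in each list (rows), with the list median as a black bar and genes past a BH-adjusted p of 0.05 in red; vertical scatter within a row is only for legibility. The 38-gene list has no value below 0 and a median of 0.63, the receptor, JAK and adaptor lists sit around 0, and the macrophage and monocyte list has a median of 1.03.

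Markers of other cell types were listed beside these genes, and 1 of them passed. Of 19 macrophage and monocyte markers, 18 had an adjusted p, 17 of those had positive values and the median log2 fold change was 1.03. The chemokine receptor Ccr2 rose, at 1.70 ± 0.58 (SE, adjusted p = 0.0499), and the complement gene C1qa stood at 1.70 ± 0.58 with a BH-adjusted p of 0.0508 by the authors' deposited table. Lyz2, a lysozyme gene on this list, had computed means of 19472 in Control and 56344 in HhipCKO with an interval of the fold from 0.459 to 18.2. Which cells made the Lyz2 transcript, macrophages or others such as epithelium, was not tested. Csf1r, the growth factor receptor that defines macrophages, was the 1 negative value, at -0.59 ± 0.39 (log2 fold change, SE) by the authors' deposited table. The summed computed level of the 19 markers was 28145 in Control and 67405 in HhipCKO, most of it Lyz2, and that of the 38 interferon-stimulated genes 171078 and 238292.

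The 6 B cell markers were all positive, with a median log2 fold change of 0.91 and no call, and summed levels of 43822 and 95476, most of it Igkc. The 8 epithelial markers had a median of 0.42 with no call, and sums of 90222 and 216497, most of it Sftpc at a fold of 2.66 with an interval from 0.472 to 15.1. The 4 tested T and NK cell markers had a median of 0.15, the 4 tested neutrophil markers of 0.36 and the 4 tested plasmacytoid dendritic markers of 0.32, none called. The 7 endothelial markers had a median of -0.33 and the 11 mesenchymal markers of -0.02, with no call in either. The lowest mean normalised count among the matched markers in these lists was 10.6, for Klrb1c, by the authors' deposited table. Among the 5 plasmacytoid dendritic markers found, 3 were positive and 2 negative. The negative ones were Siglech at -3.00 ± 1.95 and Klk1 at -1.37 ± 1.09 (log2 fold change, SE) by the authors' deposited table. Siglech had a mean normalised count of 10.7 and no adjusted p by the authors' deposited table. The part of these cells in the values of the interferon-stimulated genes was not tested.

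Position and promoter sequence were also compared with the values. Of the 38 genes, 17 have another of the 38 within 200000 bases, in clusters on chromosomes 3, 5, 12, 16 and 19. The 13 genes with a response element core had a median log2 fold change of 0.60 and the 15 without one of 0.40. The values ran from 0.01 to 1.97 with a core and from 0.05 to 3.22 without one, so the sets overlapped. Stat2 carries a core and had the smallest value, while Ifi44l had the largest value and no core in its window.

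**Figure D5:**
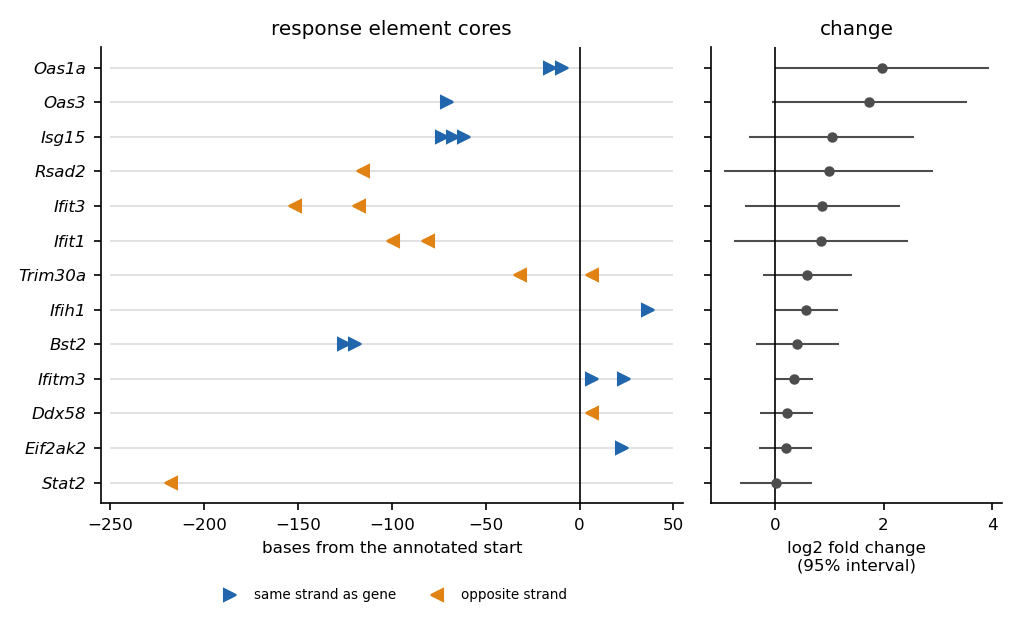
Left, centres of response element cores relative to the annotated RefSeq start (x axis, bases; triangles point right on the strand of the gene and left on the opposite strand) for the 13 genes that hold one. Right, log2 fold change with 95% interval for the same genes, from 0.01 for Stat2 to 1.97 for Oas1a.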

How the data were processed

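The submitters' processing notes name FastQC, STAR and DESeq, with GRCm38 (mm10) as the build. Versions, annotation, counter and strand setting are not given in the sources used here. The authors' deposited table holds 1 row per gene, per the file headers: the mean of normalized counts (signal) over 8 libraries, log2 fold change and standard error, the Wald score, and raw and adjusted p-values. It has 0 columns per library, so no leave-one-out or paired fit could be made, and depth per library is unknown. Wald scores matched the ratio of the log2 columns to within 2.56e-07, and adjusted p-values were Benjamini-Hochberg (largest difference 0.000252) over 17469 genes, the lowest mean count being 42.1. The authors' calls at 0.05 were used across all tested genes.

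Group levels, 95% normal intervals, spread and the fold needed were computed (Python 3.11.15, pandas 2.3.3, scipy 1.17.1, statsmodels 0.14.6, matplotlib 3.10.9). The formulas for group level and spread were run on simulated negative binomial counts, fitted with the same dispersions that were used to draw them. That run therefore checks the arithmetic and not how well dispersion is estimated from few libraries. Lengths and positions came from GENCODE M21 on GRCm38 for 31555 genes, longest transcripts giving levels per kilobase, and promoters from RefSeq. Genes given in full were the 8 with the smallest p, those without a p, the 5 most abundant per kilobase and the transcription factors, with up to 3 from each pathway list beside its calls. Others were named by role. Members and lists were chosen with earlier results of these data known. Some items are not reported here.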

Additional observations from a re-analysis of the deposited data

How the results depend on the processing

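No paired analysis was possible because the table holds 1 comparison and no values per library, and leaving out replicates was not run for the same reason. Of the interferon-stimulated genes, 3 rose in the authors' calls, 1 (Ifi44l) with the length trend removed (lowess, span 0.3), and 0 with Wald scores over their robust SD and 0 against a minimum 1.5-fold change. The count stayed within 1.5 times under the other 5 treatments, which were adjustment over every gene with a p-value, a mean count of at least 100, a threshold of 0.1, median centring and a normal p for genes without one. Usp18 passed at the threshold of 0.1. Stat2 changed sign with median centring, to -0.0040. None of the 36 was called downwards in any of these. The share of all tested genes called under each treatment is not given here. Of 84 tested pathway genes, 2 (Ly6a and Tlr7) rose in the authors' calls, 1 (Ly6a) at a mean count of at least 100, 0 against the minimum fold and 0 over the robust SD. With a normal p for genes without one, 3 of 85 rose, Epsti1 being added to Ly6a and Tlr7. Calls downwards were 0, becoming 1 at a mean count of at least 100, 1 with median centring (Ifi205 in both) and 2 at the threshold of 0.1 (Ifi205 and Tbk1). The median log2 fold change of the tested genes ran from 0.61 to 0.69. The median level per kilobase was 767 with merged exons, and 42.9% held a core from 150 bases before the start. Standard errors limit what could be called.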

Other observations

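Genes of the interferon-induced PYHIN family, which bind DNA and lie on chromosome 1, were picked out after their values were seen. Of 6 matched, 5 had negative values and none passed. In the authors' deposited table Ifi205 stood at -1.02 ± 0.35 (log2 fold change, SE, adjusted p = 0.0522), Ifi207 at -0.96 ± 0.39 and Ifi204 at -0.64 ± 0.33. Ifi203 and Mndal, whose annotated gene bodies overlap, were at -0.02 ± 0.34 and -0.05 ± 0.34 in the authors' deposited table. Ifi209 was positive at 1.47 ± 1.5 with a mean normalised count of 37.2 in the authors' deposited table, too low for an adjusted p. Ifi205 passed downwards at a mean count of at least 100 and with median centring.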
